A study of Homo sapiens with 8 samples.

Results

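The genes followed here are 7 that belong to the ERBB and MET receptor system. These are EGFR, ERBB2 and ERBB3, the receptor MET, the receptor inhibitors ERRFI1 and LRIG1, and LRIG3, a relative of LRIG1. They are 7 of 55679 gene identifiers in the deposited count table, and they were picked by symbol with their values in these libraries already known. The values that chose them were the levels in all 8 libraries and the ratios in the 4 pairs of Acetalax-treated and control libraries and the 2 pairs of CE and parental control libraries, so the levels and ratios of these genes are a description and carry no test. RNA was sequenced from MDA-MB468 and BT549, 2 human triple-negative breast cancer (TNBC) cell lines, with 1 library for each condition. Parental cells had not been exposed to Acetalax before. CE (chronic exposure) cells were resistant derivatives, 1 per line, passaged in rising Acetalax up to 40 μmol/L and then kept without the drug for 2 weeks. Each of these 4 backgrounds gave an untreated control library and a library of cells treated for 6 hours with Acetalax at 1 μmol/L. Acetalax is oxyphenisatin acetate, a former laxative. The study examined how resistant cells and treated cells differ in gene expression, and the comparisons below give these 7 genes in that setting.

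EGFR, ERBB2 and ERBB3 are related cell surface receptors. EGFR binds ligands such as EGF and amphiregulin, ERBB3 binds neuregulins and has little kinase activity of its own, and ERBB2 has no known ligand and acts as the partner of the others. MET is the receptor of hepatocyte growth factor and shares adaptors and downstream kinases with the ERBB receptors. ERRFI1 (MIG6) is a cytoplasmic protein that binds the kinase domain of ERBB receptors and inhibits it, and its gene is induced by the signalling it limits. LRIG1 is a membrane protein that lowers the amount of ERBB receptors and MET at the surface, and LRIG3 is its relative. MDA-MB468 is known for an amplified EGFR gene.

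On hg19, EGFR (ENSG00000146648) lies at chr7:55086714-55324313 on the plus strand and MET (ENSG00000105976) at chr7:116312444-116438440, also on the plus strand. ERBB2 (ENSG00000141736) lies at chr17:37844167-37886679 and ERBB3 (ENSG00000065361) at chr12:56473641-56497289, both on the plus strand. The remaining genes are on the minus strand, ERRFI1 (ENSG00000116285) at chr1:8064464-8086368, LRIG1 (ENSG00000144749) at chr3:66429221-66551687 and LRIG3 (ENSG00000139263) at chr12:59265931-59314303. LRIG1 overlaps SLC25A26, and ERBB2 overlaps MIEN1 and PGAP3, each on the opposite strand. The strand setting of the counting is not given in the sources used here, so reads in these overlaps cannot be assigned with certainty. EGFR-AS1, opposite EGFR, held at most 0.176% as many counts as EGFR in any library.

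Promoter windows are shown for EGFR, MET, ERRFI1, LRIG1 and ERBB2, the 5 genes whose level differed by at least 1.5-fold between treated and control cells in 3 or more of the 4 pairs. RefSeq (GRCh38.p14) listed windows for 6 of the 7 genes, from 250 bases before to 50 bases after a transcript start. ERBB3 was not matched. Each window printed here has 1 exact match in GRCh37, at chr7:55086460-55086759 (plus) for EGFR, chr7:116312000-116312299 (plus) for MET, chr1:8086320-8086619 (minus) for ERRFI1, chr3:66551496-66551795 (minus) for the first of the LRIG1 windows, and chr17:37844097-37844396 (plus) for ERBB2. Capitals mark GGGCGG, the SP1 box, on either strand (CCGCCC when it is on the other one), or in ERBB2 a match to TGANTCA, the AP-1 motif.
EGFR: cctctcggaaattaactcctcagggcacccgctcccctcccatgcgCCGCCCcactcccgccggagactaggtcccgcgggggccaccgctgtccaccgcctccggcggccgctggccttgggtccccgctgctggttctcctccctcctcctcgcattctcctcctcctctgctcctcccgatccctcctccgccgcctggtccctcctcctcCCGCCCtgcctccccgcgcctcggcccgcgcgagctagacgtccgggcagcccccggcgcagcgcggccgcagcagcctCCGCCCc
MET: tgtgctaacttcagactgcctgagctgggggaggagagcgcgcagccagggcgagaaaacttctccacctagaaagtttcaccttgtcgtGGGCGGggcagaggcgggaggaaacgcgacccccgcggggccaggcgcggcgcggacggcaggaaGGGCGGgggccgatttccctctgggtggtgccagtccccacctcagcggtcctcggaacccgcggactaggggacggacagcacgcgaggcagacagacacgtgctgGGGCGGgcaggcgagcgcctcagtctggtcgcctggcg
ERRFI1: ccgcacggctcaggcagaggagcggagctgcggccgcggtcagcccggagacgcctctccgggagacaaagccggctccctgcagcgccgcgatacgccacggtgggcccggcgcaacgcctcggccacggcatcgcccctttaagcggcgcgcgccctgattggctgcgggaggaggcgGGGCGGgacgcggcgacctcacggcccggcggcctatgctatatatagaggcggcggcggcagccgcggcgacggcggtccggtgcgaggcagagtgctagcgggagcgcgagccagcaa
LRIG1: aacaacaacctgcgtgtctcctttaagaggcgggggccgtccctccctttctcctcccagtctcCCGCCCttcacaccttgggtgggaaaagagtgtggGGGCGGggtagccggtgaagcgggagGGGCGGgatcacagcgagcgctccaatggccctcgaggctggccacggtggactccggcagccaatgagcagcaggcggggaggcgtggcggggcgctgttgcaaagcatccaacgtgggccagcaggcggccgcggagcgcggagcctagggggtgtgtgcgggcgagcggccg
ERBB2: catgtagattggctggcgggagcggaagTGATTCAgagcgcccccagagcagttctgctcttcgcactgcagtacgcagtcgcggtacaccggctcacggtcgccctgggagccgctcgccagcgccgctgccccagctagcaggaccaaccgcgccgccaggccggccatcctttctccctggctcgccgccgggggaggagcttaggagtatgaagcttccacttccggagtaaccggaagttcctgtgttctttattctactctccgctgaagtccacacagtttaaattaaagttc
The EGFR, MET and LRIG1 windows printed here each hold 3 SP1 boxes and the ERRFI1 window holds 1. These printed windows hold 0 AP-1 matches. RefSeq also lists windows that are not printed. A second EGFR window, at chr7:55177282-55177581, holds 0 SP1 boxes and 2 AP-1 matches. An LRIG1 window at chr3:66456142-66456441 likewise holds 0 SP1 boxes and 2 AP-1 matches. The ERBB2 window holds 0 SP1 boxes and 1 AP-1 match. It spans the outermost start of the ERBB2 gene, at chr17:37844167, and whether ERBB2 transcripts of these cells start there was not tested. PGAP3 overlaps ERBB2 on the opposite strand, and whether the AP-1 match lies within PGAP3 was not examined. These motifs are common: of 35116 promoter windows of the same length, 45.0% hold at least 1 SP1 box, 15.8% hold 3 or more, and 7.71% hold the AP-1 motif. The CRE motif TGACGTCA, in 1.85% of all windows, was not found in a window of these genes. The matches describe these letters only.

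The libraries held 42261122 to 54241728 counts on genes, a 1.28-fold range. Levels are given as CPM, the counts on a gene per 1000000 counts on all genes of the library. All 7 genes had a mean of at least 5 CPM over the 8 libraries, as did 11135 genes in all, and ERBB3 reached this mean through the MDA-MB468 libraries alone. Epithelial markers (EPCAM, CDH1 and 5 keratins) summed to between 7912 and 10873 CPM in the MDA-MB468 libraries and to between 157 and 269 CPM in BT549, whereas 5 mesenchymal markers summed to at most 55.7 CPM in MDA-MB468 and at least 3704 CPM in BT549. ESR1 did not exceed 5.15 CPM in any library. CD3E was at 0 counts in all 8 libraries and PTPRC (CD45) did not exceed 0.756 CPM, while CD14 was at 47.2 CPM in the MDA-MB468 parental control. Intervals given below are 95% intervals that cover counting error only, not the variation between cultures, which 1 library per condition cannot show. In bulk RNA, fewer cells that express a gene and less of its RNA per cell cannot be told apart.

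**Figure D1:**
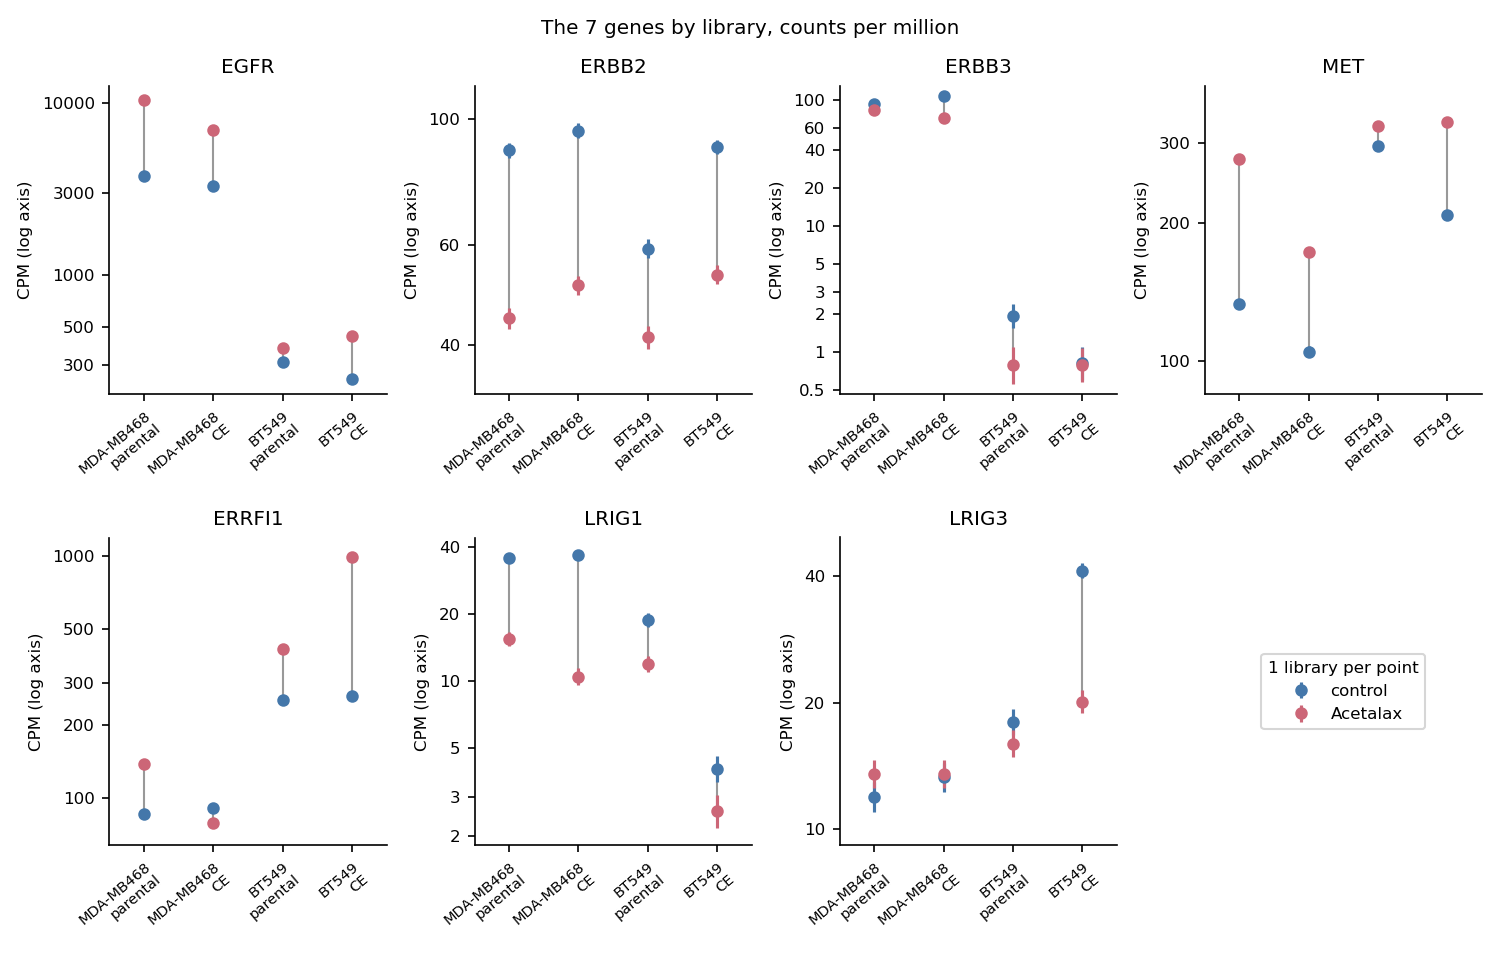
CPM (log axis) of the 7 genes in the 8 libraries, with control libraries in blue and Acetalax-treated libraries in red. Each point is 1 library with its 95% Wilson counting interval, and a grey line joins the control and treated libraries of 1 background. EGFR and MET lie higher after Acetalax in all 4 backgrounds and ERBB2 and LRIG1 lower, while ERBB3 is at or below 1.92 CPM in the BT549 libraries.

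Among the receptors, EGFR separated the cell lines and was higher in the treated library of every pair. In MDA-MB468 EGFR was at 3748 CPM in the parental control, 10474 CPM in the treated parental library, 3285 CPM in the CE control and 6946 CPM in the treated CE library. The treated parental library held 508714 EGFR counts, or 1.05% of its counts on genes, and only 2 genes had a higher CPM there. In BT549 the same 4 conditions gave 314, 379, 249.6 and 440.0 CPM. The lines did not overlap, since the lowest MDA-MB468 library was well above the highest BT549 library. The log2 ratio of treated over control was 1.48 (2.79-fold) in MDA-MB468 parental cells and 1.08 (2.11-fold) in the CE cells. In BT549 it was 0.27 (1.21-fold) in parental cells and 0.82 (1.76-fold) in CE cells. CE cells thus had the smaller ratio in MDA-MB468, by 0.40 with a counting interval from 0.39 to 0.41, and the larger in BT549, by 0.55 with an interval from 0.50 to 0.59. Whether these differences exceed the variation between cultures was not tested.

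MET followed EGFR in direction but not in its difference between lines. MET was at 133, 276, 105 and 174 CPM in the MDA-MB468 parental control, treated parental, CE control and treated CE libraries, and at 296, 326, 208 and 333 CPM in those of BT549. The treated library was the higher of each pair, and the parental control of BT549 was above the treated parental library of MDA-MB468. The log2 ratios were 1.05 and 0.73 in MDA-MB468 parental and CE cells. In BT549 they were 0.14 and 0.68. EGFR and MET were higher in all 4 treated libraries, as were 12.7% of the 11135 genes. Neither was at least 1.5-fold higher in all 4, as were 0.611% of genes, because both were within this fold in BT549 parental cells.

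ERBB2, the receptor without a known ligand, went the other way. It was at 88.0 CPM in the MDA-MB468 parental control against 44.5 CPM after treatment, and at 95.2 against 50.8 CPM in the CE cells. In BT549 it was at 59.0 against 41.2 CPM in parental cells and at 89.0 against 53.1 CPM in CE cells. By CPM of total counts all 4 treated libraries lay below all 4 controls. With TMM scaling the ranges overlapped, since the treated BT549 CE library (64.0 CPM) was above the BT549 parental control (59.3 CPM). ERBB2, ERBB3 and LRIG1 were lower in all 4 treated libraries, as were 30.6% of the 11135 genes. The log2 ratios were -0.98, -0.90, -0.52 and -0.74 in that order. In MDA-MB468 parental cells ERBB2 had 4280 counts in the control and 2161 after treatment, while MIEN1 and PGAP3, on the opposite strand, had 1022 and 978 counts and 635 and 407 counts.

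ERBB3, the neuregulin receptor, was in effect an MDA-MB468 gene in these data. Its level was 93.1, 83.4, 107 and 71.9 CPM in the MDA-MB468 parental control, treated parental, CE control and treated CE libraries. In BT549 it was 1.92, 0.782, 0.811 and 0.791 CPM, from 81, 34, 44 and 40 counts. The BT549 parental control stood above the 3 other BT549 libraries, which could not be told apart at this depth. The log2 ratio was -0.16 in MDA-MB468 parental cells and -0.57 in CE cells. In BT549 parental cells it was -1.19, with a counting interval from -1.77 to -0.62, and in CE cells -0.03, with an interval from -0.65 to 0.59. Scaling by TMM, a scaling factor from the bulk of genes, turned the last of these to 0.16.

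ERRFI1, LRIG1 and LRIG3 did not move as a group. ERRFI1 was at 86.1 and 138 CPM in the control and treated libraries of MDA-MB468 parental cells, and at 91.2 and 78.9 CPM in those of CE cells. In BT549 it was at 255 and 413 CPM in parental cells and at 263 and 997 CPM in CE cells. Every BT549 library was above every MDA-MB468 library, and the treated BT549 CE library stood far above the rest with 50437 counts. The log2 ratios were 0.68 and 0.69 in the parental cells of MDA-MB468 and BT549, which differed by 0.02 with a counting interval from -0.05 to 0.08. In CE cells they were -0.21 in MDA-MB468 and 1.92 (3.79-fold) in BT549. Relative to its parental ratio, ERRFI1 was thus 0.89 lower in MDA-MB468 CE cells (interval of the difference -0.97 to -0.80) and 1.23 higher in BT549 CE cells (interval 1.18 to 1.27).

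LRIG1 was lower after Acetalax by at least 1.5-fold in all 4 pairs, as were 1.07% of the 11135 genes. It was at 36.0 CPM in the MDA-MB468 parental control and 15.5 CPM after treatment, and at 36.9 and 10.4 CPM in the CE cells. In BT549 it was at 18.8 and 11.9 CPM in parental cells and at 4.00 and 2.59 CPM in CE cells, from 217 and 131 counts. The MDA-MB468 controls were the highest of the 8 libraries and the BT549 CE libraries the lowest. The log2 ratios were -1.21 (2.31-fold lower) in MDA-MB468 parental cells, -1.81 (3.52-fold lower) in the CE cells of that line, and -0.65 and -0.61 in BT549 parental and CE cells. With TMM scaling the last ratio was -0.40, within 1.5-fold. SLC25A26, on the opposite strand, had 518 and 628 counts in the BT549 CE control and treated libraries, more than LRIG1 had there.

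LRIG3 stayed near 13 CPM in MDA-MB468, at 11.9, 13.5, 13.3 and 13.5 CPM in the parental control, treated parental, CE control and treated CE libraries. In BT549 the values were 18.0, 16.0, 41.3 and 20.1 CPM, so the CE control stood apart from the other 7 libraries. The log2 ratios of treated over control were 0.18 and 0.03 in MDA-MB468 parental and CE cells. In BT549 they were -0.17 and -1.03 (2.04-fold lower).

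**Figure D2:**
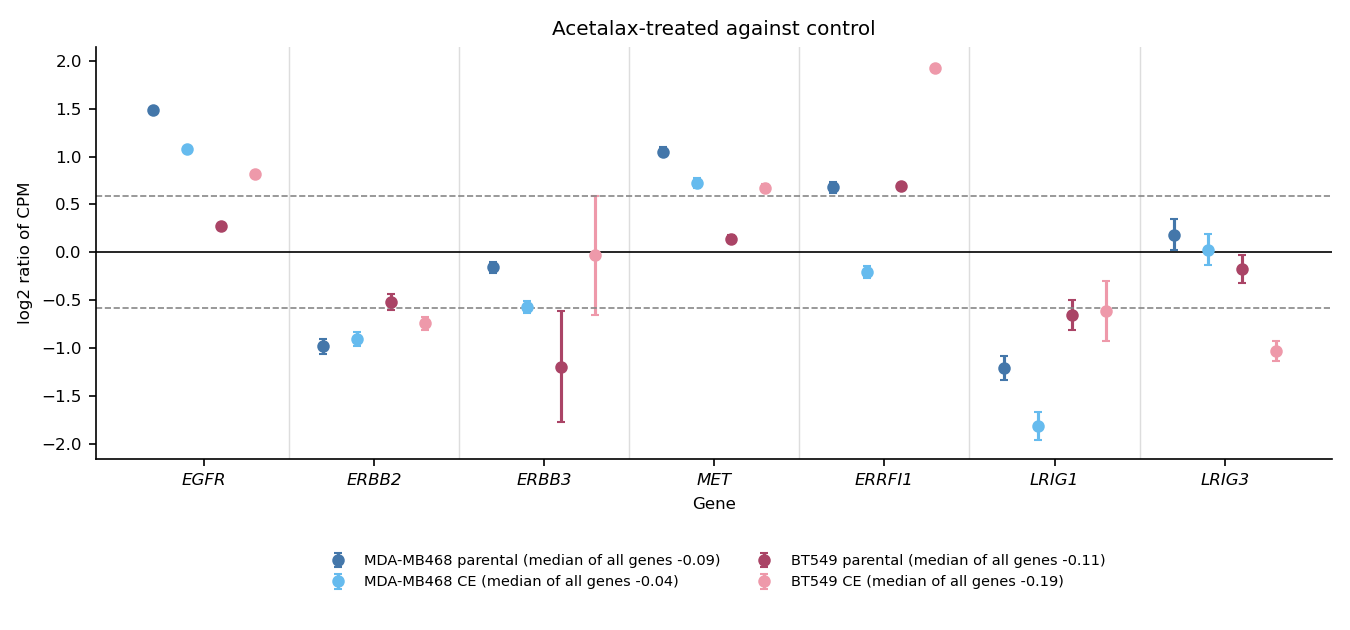
Log2 ratio of CPM, treated over control, for the 7 genes in the 4 backgrounds, with 95% counting intervals. The solid line marks no difference and the dashed lines 1.5-fold in each direction, and the legend gives the median ratio of all genes in that pair. EGFR and MET are above 0 and ERBB2 and LRIG1 below 0 in all 4 backgrounds, and ERRFI1 runs from -0.21 to 1.92.

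Counted by a fold of at least 1.5, the MDA-MB468 parental pair had 3 of the 7 genes higher after Acetalax (EGFR, MET and ERRFI1) and 2 lower (ERBB2 and LRIG1), beside 9.85% and 11.4% of the 11135 genes. The MDA-MB468 CE pair had 2 higher (EGFR and MET) and 2 lower (ERBB2 and LRIG1), beside 5.86% of all genes in each direction. The BT549 parental pair had 1 higher (ERRFI1) and 2 lower (ERBB3 and LRIG1), beside 4.16% and 10.5%. The BT549 CE pair had 3 higher (EGFR, MET and ERRFI1) and 3 lower (ERBB2, LRIG1 and LRIG3), beside 8.89% and 24.5%. The median log2 ratio of the 7 genes was 0.18, -0.21, -0.17 and -0.03 in these pairs in that order, and that of all genes was -0.09, -0.04, -0.11 and -0.19. These shares are background to genes that were chosen on the same ratios. In the BT549 CE pair TMM scaling moved the median of all genes by 0.20, and relative to that median ERBB2 was lower by 0.56, LRIG1 by 0.42 and LRIG3 by 0.85, while ERRFI1 was higher by 2.11. ERBB2 and LRIG1 were within 1.5-fold there under TMM scaling, at -0.53 and -0.40.

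The comparison of CE with parental cells asked which genes differ in resistant cells without drug. In MDA-MB468 control cells 0 of the 7 genes passed 1.5-fold, beside 8.3% of all genes in either direction. The largest ratio was that of MET at -0.35, followed by ERBB3 at 0.20 and EGFR at -0.19. ERRFI1 was at 0.08 and LRIG1 at 0.04, the latter with an interval from -0.06 to 0.13. Under TMM scaling LRIG1 was at -0.02.

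In BT549 control cells 2 genes were at least 1.5-fold higher in CE cells (LRIG3 and ERBB2) and 2 lower (LRIG1 and ERBB3), beside 13.9% and 13.4% of all genes. LRIG1 was at 18.8 CPM in the parental and 4.00 CPM in the CE control, a log2 ratio of -2.21 (4.62-fold lower) with a counting interval from -2.42 to -1.99. LRIG3 was at 18.0 and 41.3 CPM, a ratio of 1.19 (2.28-fold higher) with an interval from 1.07 to 1.31. The 2 LRIG genes thus differed in opposite directions, and LRIG1 per LRIG3 by FPKM (counts per kilobase of exon, scaled like CPM) was 0.871 in the parental control and 0.0809 in the CE control. ERBB2 had a ratio of 0.59, just past the fold, and ERBB3 one of -1.15 from 81 and 44 counts. EGFR at -0.33, MET at -0.51 and ERRFI1 at 0.05 were within 1.5-fold. Marker levels moved in the same pair of libraries. Of the 7 epithelial markers 4 were at least 1.5-fold higher in the CE control and 2 lower, with a median log2 ratio of 1.65, among them KRT8 at 1.25 CPM in the parental and 34.4 CPM in the CE control and KRT18 at 6.67 and 47.9 CPM. Their sum was nevertheless lower, at 269 and 176 CPM, through KRT7 at 259.9 and 88.9 CPM. Of the 5 mesenchymal markers 1 was higher and 3 were lower, with a median of -0.62, among them FN1 at 1629 and 593 CPM, CDH2 at 223 and 109.5 CPM and VIM at 1327 and 864 CPM. Their sum was higher, at 3704 and 5071 CPM, through SPARC at 439 and 3447 CPM. Each of the 12 was detected in both libraries. EPCAM (0.189 and 0.0369 CPM), CDH1 (0.237 and 0.959 CPM) and KRT5 (0.0710 and 0.0184 CPM) were near the floor in both. The median of 1.65 was the ratio of CDH1, and EPCAM was 1 of the 2 lower epithelial markers. The part of the markers in the LRIG1 and LRIG3 ratios was not tested.

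Under Acetalax, EGFR, MET and ERRFI1 were lower in CE than in parental cells of MDA-MB468, and ERRFI1 was higher in those of BT549. These ratios use the treated libraries of the Acetalax pairs. In MDA-MB468 treated cells EGFR (-0.59), MET (-0.67) and ERRFI1 (-0.80) were at least 1.5-fold lower in CE cells and 0 genes were higher, beside 7.36% and 7.81% of all genes. LRIG1 was at -0.57, just within the fold. In BT549 treated cells ERRFI1 was higher in CE cells at 1.27 (2.42-fold) and LRIG1 lower at -2.16 (4.47-fold), beside 11.8% and 19.0% of all genes. EGFR was at 0.22, ERBB2 at 0.37 and MET at 0.03 there, and TMM scaling, which moved the median of all genes by 0.22 in this pair, put them at 0.45, 0.60 and 0.26. LRIG3, at 1.19 in untreated BT549 cells, was at 0.33 in treated cells.

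**Figure D3:**
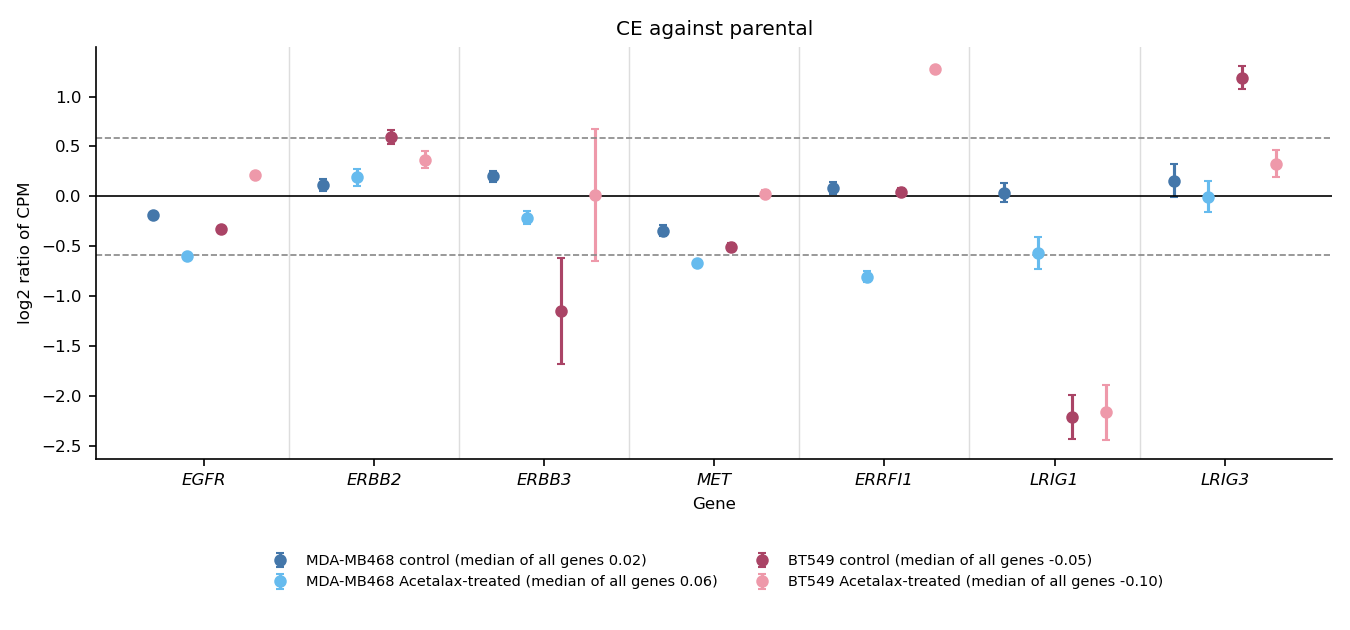
Log2 ratio of CPM, CE over parental cells, for the 7 genes in control and in Acetalax-treated cells of each line, with 95% counting intervals. The solid line marks no difference and the dashed lines 1.5-fold in each direction, and the legend gives the median ratio of all genes in that pair. LRIG1 is at -2.21 and -2.16 in BT549, and ERRFI1 in treated cells is at -0.80 in MDA-MB468 and 1.27 in BT549.

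Levels between genes were compared by FPKM. The order depends on the merged exon length that FPKM divides by, 15941 bases for EGFR, 7224 for MET and 4179 for ERRFI1. By CPM, EGFR was above MET in every BT549 library, as at 314 and 296 CPM in the parental control. EGFR was also above ERRFI1 by CPM in that control (255 CPM), but not in the other BT549 libraries. Which transcript lengths these cells use was not examined. In the MDA-MB468 controls, parental and CE, the order from high to low was EGFR, ERRFI1, MET, ERBB2, ERBB3, LRIG1 and LRIG3. In both treated MDA-MB468 libraries MET stood above ERRFI1, ERBB3 above ERBB2 and LRIG3 above LRIG1. All 4 BT549 libraries had the order ERRFI1, MET, EGFR, ERBB2, LRIG3, LRIG1 and ERBB3. Neighbours whose counting intervals overlapped were LRIG3 and LRIG1 in the treated MDA-MB468 parental library (2.31 and 2.20 FPKM), ERBB2 and ERBB3 in the MDA-MB468 CE control (9.22 and 9.13 FPKM), and LRIG3 and LRIG1 in the BT549 parental control (3.07 and 2.67 FPKM). EGFR spanned 206 to 657 FPKM in MDA-MB468 and 15.7 to 27.6 FPKM in BT549.

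The balance of receptor to inhibitor differed by line. EGFR per ERRFI1, as a ratio of FPKM in the same library, was 11.4 and 19.9 in control and treated MDA-MB468 parental cells and 9.44 and 23.1 in the CE cells. In BT549 it was 0.323 and 0.241 in parental cells and 0.249 and 0.116 in CE cells. The ratio was higher in the treated library of both MDA-MB468 pairs and lower in that of both BT549 pairs. The size of such a ratio depends on the exon lengths that FPKM divides by, while its comparison between libraries does not. MET per LRIG1 was 3.61 and 17.4 in MDA-MB468 parental cells, 2.77 and 16.2 in the CE cells, 15.3 and 26.7 in BT549 parental cells and 50.8 and 125 in BT549 CE cells, higher in the treated library of all 4 pairs. Of the counts on EGFR, ERBB2 and ERBB3 together, EGFR held from 94.2% to 98.8% in MDA-MB468 and from 73.5% to 90.0% in BT549.

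**Figure D4:**
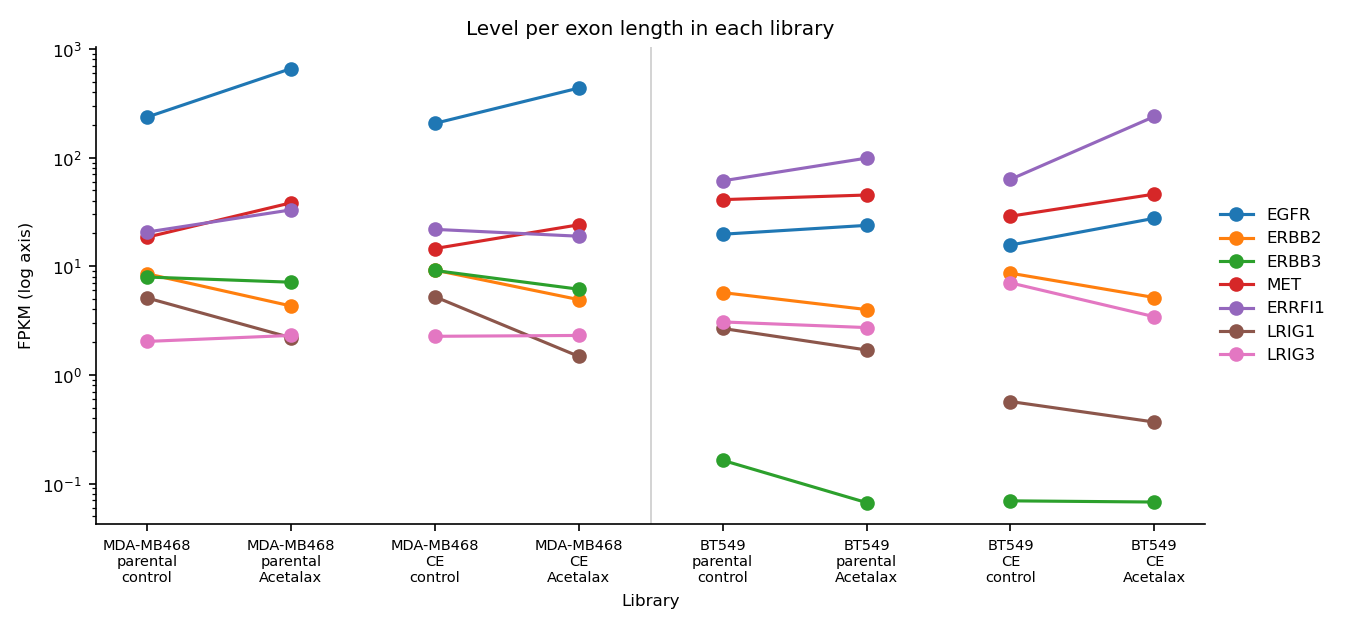
FPKM (log axis) of the 7 genes in each of the 8 libraries, 1 library per position, with MDA-MB468 at left and BT549 at right. Lines join the control and treated library of 1 background and are guides only. EGFR, the highest of the 7 in MDA-MB468, is below ERRFI1 and MET in BT549, where ERRFI1 is the highest and reaches 239 FPKM in treated CE cells. This order depends on exon length, and by CPM EGFR is above MET in every BT549 library.

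Between the lines in the same condition, EGFR and ERBB3 were at least 1.5-fold lower in BT549 in all 4 conditions, as were 21.6% of the 11135 genes, and ERRFI1 was at least 1.5-fold higher in all 4, as were 15.2%. In the parental controls EGFR was 11.9-fold and ERBB3 46.2-fold lower in BT549, whereas MET was 2.22-fold and ERRFI1 2.96-fold higher. ERRFI1 in the treated CE libraries was 12.6-fold higher in BT549. In CE controls LRIG1 was 9.03-fold lower in BT549 and LRIG3 3.09-fold higher. ERBB2 was at -0.58 in the parental controls and -0.10 in the CE controls, and the latter was 0.12 under TMM scaling.

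For each gene, the genes with the most similar pattern were ranked by Pearson's r of log2 CPM over the 8 libraries after centring within each line. This is a description over 8 points that share libraries and pairs, and the genes named are the highest of 11135 candidates. EGFR was most like PTGER4 (r = 0.995), LARP4 (0.993) and CORO1C (0.990). MET was most like DNAJC6 (0.993), PHLDA1 (0.984) and KCTD9 (0.982). The genes nearest to ERRFI1 were STK40 (0.993), KDM6B (0.989) and NAB1 (0.982), and those nearest to LRIG1 were MLLT11 (0.995), MDM2 (0.980) and IMPA1 (0.976). LRIG3 was nearest to PPFIA3 (0.984), CDH1 (0.977) and TP53I11 (0.975), and ERBB2 to FAM171B (0.993), TBCK (0.989) and RPA3 (0.986). CDH1 and TP53I11 were near the floor in BT549, at no more than 0.959 and 0.442 CPM. ERBB3, with few counts in BT549, had its nearest genes at lower r, BAG4 (0.904), RPL12P4 (0.901) and RAP2C (0.900). Among the 7 genes, EGFR and MET had r = 0.965, ERBB2 was opposed to both (-0.905 with EGFR and -0.907 with MET), and LRIG1 and ERBB3 had r = 0.742.

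Other genes of the receptor system went into edgeR's quasi-likelihood test over the 8 libraries, with each background as a block and Benjamini-Hochberg adjustment over 19693 genes. The lists were chosen with earlier results of these data known, so the counts per list are not an independent test. For Acetalax, 984 genes passed an adjusted p of 0.05, or 5.0%, with 536 higher (2.72%) and 448 lower (2.27%). Without the MDA-MB468 parental pair 0 genes passed (3491 had an unadjusted p under 0.05), and 554, 311 and 263 passed without the MDA-MB468 CE, the BT549 parental and the BT549 CE pair. The p-values measure the spread between the 4 pairs. These pairs come from 2 lines, each with its own CE derivative, so they are not 4 independent backgrounds. Of 10 tested ligand genes of 12 listed, 2 rose and 1 fell, with 8 at an unadjusted p under 0.05. DESeq2 called 4 of the 12 higher and 0 lower, and edgeR without a filter called 6 higher and 1 lower. HBEGF, an EGFR ligand, rose with a log2 fold change of 2.11 (adjusted p = 0.0459) and was at 4.75 and 20.2 CPM in the control and treated libraries of MDA-MB468 parental cells, 6.50 and 10.2 in CE cells of that line, 35.3 and 107 in BT549 parental cells and 15.1 and 204 in BT549 CE cells. AREG (amphiregulin) rose with 3.48 (adjusted p = 0.0449), which came from MDA-MB468, at 0.103 and 4.41 CPM in parental and 0.408 and 1.89 CPM in CE cells, since it did not exceed 0.0395 CPM in BT549. NRG2, a neuregulin, fell with -1.82 (adjusted p = 0.0431) from no more than 1.09 CPM. The median log2 fold change of the 10 was 1.11, against -0.04 for all genes. Only 3 of them (TGFA, HBEGF and NRG1) had a mean of at least 5 CPM, and the others were below it. TGFA was near 0 in BT549 and NRG1 near 0 in MDA-MB468. The median log2 ratio of those 3 was 1.15 and 0.64 in MDA-MB468 parental and CE cells. In BT549 it was 0.29 and 1.89.

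Of 16 adaptor and proximal signalling genes tested, 1 fell and 0 rose by edgeR, with 3 at an unadjusted p under 0.05. DESeq2 called 1 higher and 1 lower, and edgeR without a filter 2 higher and 1 lower. The gene that fell was PIK3R1, the regulatory subunit of PI3-kinase, at -1.43 (adjusted p = 0.0307), with 82.7 and 17.7 CPM in control and treated MDA-MB468 parental cells and 124 and 45.8 CPM in BT549 CE cells. Of 18 genes listed as acting on receptor downregulation, in either direction, 0 passed by edgeR, with 5 at an unadjusted p under 0.05. CBL proteins, phosphatases, SOCS proteins and LRIG2 were among the 18. DESeq2 called 2 of them higher, and edgeR without a filter called 5 higher and 1 lower. LRIG2, the third LRIG gene, was at -0.11 (adjusted p = 0.57), and HGS, which sorts receptors to lysosomes, was at 0.36 (adjusted p = 0.0545). Of 9 maturation and shedding genes 0 passed by edgeR, with 5 at an unadjusted p under 0.05 and 0 called by DESeq2. Without a filter, edgeR called 3 of these higher and 0 lower. Of 20 other receptor tyrosine kinases 0 passed by edgeR, with 4 at an unadjusted p under 0.05 and 2 called higher by DESeq2. Here edgeR without a filter called 3 higher and 1 lower. MST1R, the relative of MET, was at -0.30 (adjusted p = 0.53), and ERBB4 was at or below 0.118 CPM in all 8 libraries and was not tested.

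For CE against parental cells, with line and treatment as the block, 23 genes passed edgeR's test, or 0.117%, and 0 to 10 when 1 pair was left out. The 4 pairs hold 1 CE derivative of each line, untreated and treated, so they are not 4 independent derivations. Neither MST1R nor a gene of the 5 lists was among the 23 (0 genes). DESeq2 called 0 genes of the lists and 1 of the pair ERBB4 and MST1R, as higher. Without a filter, edgeR called 1 of the other receptor tyrosine kinases lower and 1 of that pair higher. The counts at an unadjusted p under 0.05 were 1 ligand, 1 adaptor, 2 downregulation genes, 2 maturation genes and 4 other receptor tyrosine kinases. MST1R was at 0.94 (adjusted p = 0.14) and was the higher in CE cells in all 4 pairs. UBASH3B, a phosphatase-related protein that acts on receptor downregulation, was at -1.03 (adjusted p = 0.32) with the largest ratio, -2.64, in BT549 control cells. Between the lines, with 4 pairs of the same 2 lines, 11188 genes passed, or 56.8%, and among the ligands this included NRG1, which did not exceed 0.0421 CPM in MDA-MB468 and ran from 83.2 to 309.7 CPM in BT549, and TGFA, at 35.0 to 77.5 CPM in MDA-MB468 and at most 0.0237 CPM in BT549. ERBB3, the neuregulin receptor, was thus near 0 in the line that held NRG1 transcripts.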

How the data were processed

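The authors aligned 101-base paired reads of poly(A)-selected, directional libraries to hg19 with STAR (version 2.7.11b in the submitters' processing notes) and deposited raw GeneCounts, that is, whole-number counts per gene without normalization. The annotation and strand column are not given in the sources used here. The table had 58154 rows for 55679 identifiers. Of 1392 repeated identifiers the first row was kept, and 3 had unequal counts. Samples were grouped by title, and doses and times follow the study's methods.

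CPM used the total counts on genes. Log2 ratios used a pseudocount of 0.1 CPM, and intervals were 95% (Wilson for CPM). FPKM used merged exons of GENCODE on GRCh37. Calls by fold were made at 1.5-fold among genes whose mean reached 5 CPM. Groups have 1 library each, so the 7 genes were given no test. The 3 tests (Acetalax, CE, line) used edgeR 4.0.16 in R 4.3.3 (quasi-likelihood, TMM, filterByExpr) on 8 libraries with 4 blocks (the other 2 factors combined), 1 term and 3 residual degrees of freedom, and were tested on simulated data. Nothing in the labels says that libraries came from separate cultures.

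The 7 genes and the lists were chosen with earlier results of these data known. By rule, the text names the 7 genes, the 3 nearest genes of each, and for each list and test up to 2 called genes in each direction or, where none was called, up to 2 with 1 direction in all 4 pairs. Names outside this rule (ERBB4, SLC25A26, MIEN1 and single markers) were added after their values were seen. Under this rule, 1 result is not reported here. Alternatives were TMM and DESeq2 1.42.0 scaling, total counts, DESeq2's Wald test, other filters, pseudocounts of 0.01 and 1 CPM, 2-fold calls, and leaving out each pair.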

Additional observations from a re-analysis of the deposited data

Results flagged for a closer look

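The Acetalax response of LRIG3 had opposite directions in the 2 cell lines. The log2 ratio of treated over control was 0.182 in parental and 0.0262 in CE cells of MDA-MB468, and -0.171 in parental and -1.03 in CE cells of BT549. The counting interval of the MDA-MB468 CE value, from -0.14 to 0.19, includes 0. The BT549 parental value was -0.065 relative to the median of all genes in that pair and -0.139 under TMM scaling. The BT549 CE pair thus held the only large ratio. With 2 pairs per line, chosen with these ratios known, the difference between lines was not tested.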

How the results depend on the processing

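Of the 56 log2 ratios of the 7 genes (7 genes in 8 pairs), none that passed 1.5-fold reversed under any alternative. TMM scaling moved 29 of 56 by more than their counting error, DESeq2 size factors 26, a pseudocount of 1 CPM 2 and a pseudocount of 0.01 CPM 0. The call by fold depended on the setting for ERBB2 and LRIG1 in the BT549 CE Acetalax pair, for ERBB2 in BT549 CE against parental cells (control and treated), and for LRIG1 in treated MDA-MB468 CE against parental cells.

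The Acetalax test called 3585 genes without a filter and 2684 by DESeq2's Wald test, against 984, and 0 to 554 when a pair was left out. With total counts it called 374 higher and 685 lower. The CE test called 446 without a filter and 916 by DESeq2, against 23, and 0 to 10 when a pair was left out, with 10 without the MDA-MB468 control pair and 0 without any of the others. At 2-fold the genes called for Acetalax were 758 (MDA-MB468 parental), 387 (MDA-MB468 CE), 353 (BT549 parental) and 1615 (BT549 CE), and for CE 362 and 524 in MDA-MB468 control and treated cells and 1268 and 1412 in BT549. With a mean of at least 1 CPM, 2108 (MDA-MB468 CE) and 2455 (BT549 parental) were called for Acetalax and 1617 and 2557 for CE in MDA-MB468 control and treated cells. A lower filter or a higher fold changes these counts by construction, and the cause of the other moves was not tested.

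Leave-one-out fits called HBEGF in 2 of 4 fits, PIK3R1 in 3 of 4, NRG2 in 0 of 4 and AREG in 0 of 3. Over 8 alternatives the adjusted p ran up to 0.187 for HBEGF and 0.170 for PIK3R1, and over 7 up to 0.192 for AREG and 0.189 for NRG2. Depth limits ERBB3 in BT549, with 34 to 81 counts, and LRIG1 in BT549 CE cells, with 131 and 217.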

Other observations

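Of 7 epithelial markers 1 fell and 0 rose with Acetalax by edgeR, with 3 at an unadjusted p under 0.05. DESeq2 called 1 higher and 1 lower, and edgeR without a filter 2 higher and 1 lower. KRT19, a keratin of simple epithelia, fell (log2 fold change -0.74, adjusted p = 0.0431, edgeR), from 2392 to 1525 CPM in MDA-MB468 parental cells and from 2719 to 1905 CPM in CE cells, and 0 of 4 leave-one-out fits called it. KRT5, a basal keratin, had a log2 fold change of 0.84 (adjusted p = 0.0665, edgeR), with 1027 and 1827 CPM in control and treated MDA-MB468 parental cells. FN1 (fibronectin) was lower in CE cells (log2 fold change -1.37, adjusted p = 0.0472, edgeR), at 34.3 and 13.4 CPM in the MDA-MB468 parental and CE controls, and 0 of 4 leave-one-out fits called it. CDH5, an endothelial cadherin, was at 0 counts in BT549 and ran from 0.740 to 8.01 CPM in MDA-MB468, with the highest value in treated CE cells.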
